A study of Mus musculus with 24 samples.

Results

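The cell cycle and DNA replication genes of mouse liver were described here as a list of 44 genes covering cyclins, cyclin-dependent kinases, the machinery that licenses and copies DNA, nucleotide supply and mitosis. A gene was taken as measured when a probe set of the array carried its symbol and no other, and 40 of the 44 genes were, through 55 probe sets out of 12422 with values and 8251 named genes. *Ccnb1*, *Pole* and *Bub1b* had no probe set under their symbol, and the probe sets of *Tyms* also carried the symbol of a pseudogene, so these 4 are not analysed here. RNA was from whole liver of male mice aged 9 to 12 weeks on a mixed SV129 and C57BL/6 background, either wild-type or PPARα-null, the latter lacking PPARα, a nuclear receptor that lipids and peroxisome proliferators activate. Each strain gave 4 groups of 3 mice: control diet (control), control diet with heat shock (HS), a diet with 500 ppm of the PPARα agonist WY (pirinixic acid) for 7 days (WY), and the WY diet followed by heat shock (WY+HS). Heat shock was 42 °C for 40 minutes and the livers were taken 4 hours later, while the other mice stayed at room temperature. All 24 mice were fed rodent chow, each liver was hybridised to 1 Affymetrix U74Av2 array, and the null allele was present in the whole animal.

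Cells that divide pass from a gap phase through DNA synthesis to a second gap phase and mitosis, and cyclins bound to their kinases drive each step. Minichromosome maintenance (Mcm) proteins are loaded on origins before DNA synthesis and unwind DNA at the fork, and most of these genes are transcribed in periodic waves under E2F factors early in the cycle and under the complexes that bind CHR and CCAAT elements late in it. Hepatocytes of an adult liver are mostly quiescent, and PPARα agonists are known in rodents as liver mitogens.

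Values below are probe set intensities after quantile normalisation of the 24 arrays, with every value under 15.7 set to that floor. This is the 10th percentile without its minus sign, as 24.1% of deposited values were at or below 0. The floor at the 5th percentile is therefore higher, at 33.9, and that at the 20th percentile lower, at 3.04. A probe set over the floor is called above background. The floor held 42.9% of all values, and values at it have no order. Changes are log2 differences between group means with their standard error (SE), and adjusted p-values are limma's, with Benjamini-Hochberg correction over all 12422 probe sets and a threshold of 0.05; a gene counts by its brightest probe set. Hepatocyte markers summed to 47140 to 57400 per mouse, with none of the 14 measured at the floor throughout. The *Ppara* probe set read 274 to 357 in wild-type mice other than the HS group and 103 to 210 in PPARα-null mice, while the wild-type HS mice, at 181 to 330, reached into the null range. PPARα-null HS livers stood apart from null controls: summed markers of T and NK cells were 469 to 579 against 227 to 290, and those of neutrophils 1023 to 1366 against 466 to 651. The neutrophil sum also reached 1111 in null WY mice and 1912 in wild-type HS mice. It includes *Lcn2*, which alone ranged from 28.2 to 1212 over the 24 mice, the widest range of its 13 markers. A high neutrophil sum can therefore rest largely on that gene. *Ngp*, *Mmp8* and *Mmp9* were at the floor in every mouse.

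Few of the 40 genes gave a signal in every mouse. Genes above background on all 24 arrays numbered 11: *Ccnd1*, *Ccne1*, *Ccnb2*, *Cdk2*, *Cdk4*, *Cdc20*, *Cks2*, *Mcm3*, *Mcm5*, *Pcna* and *Rrm2*. A further 10 (*Ccnd3*, *Ccna2*, *Mcm7*, *Pola1*, *Fen1*, *Tk1*, *Mki67*, *Birc5*, *Plk1* and *Stmn1*) were above it on all 3 arrays of at least 1 group, which brought the count to 21. *Cdk1*, *Ccnd2*, *Cdc45*, *Lig1*, *Rfc4*, *Top2a* and *Aurkb* were at the floor in all 24 mice, and the other 12 genes were above it on 1 to 9 of the arrays (9 for *Cdc6*, a licensing factor) but never in a whole group. By probe sets, 21.8% of the members' were above background in every mouse against 38.8% of all probe sets, and 20.0% were at the floor in every mouse against 24.1% of all. A probe set at the floor shows that this array gave no usable signal, not that the transcript was absent, and levels of different probe sets cannot be ranked.

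**Figure D1:**
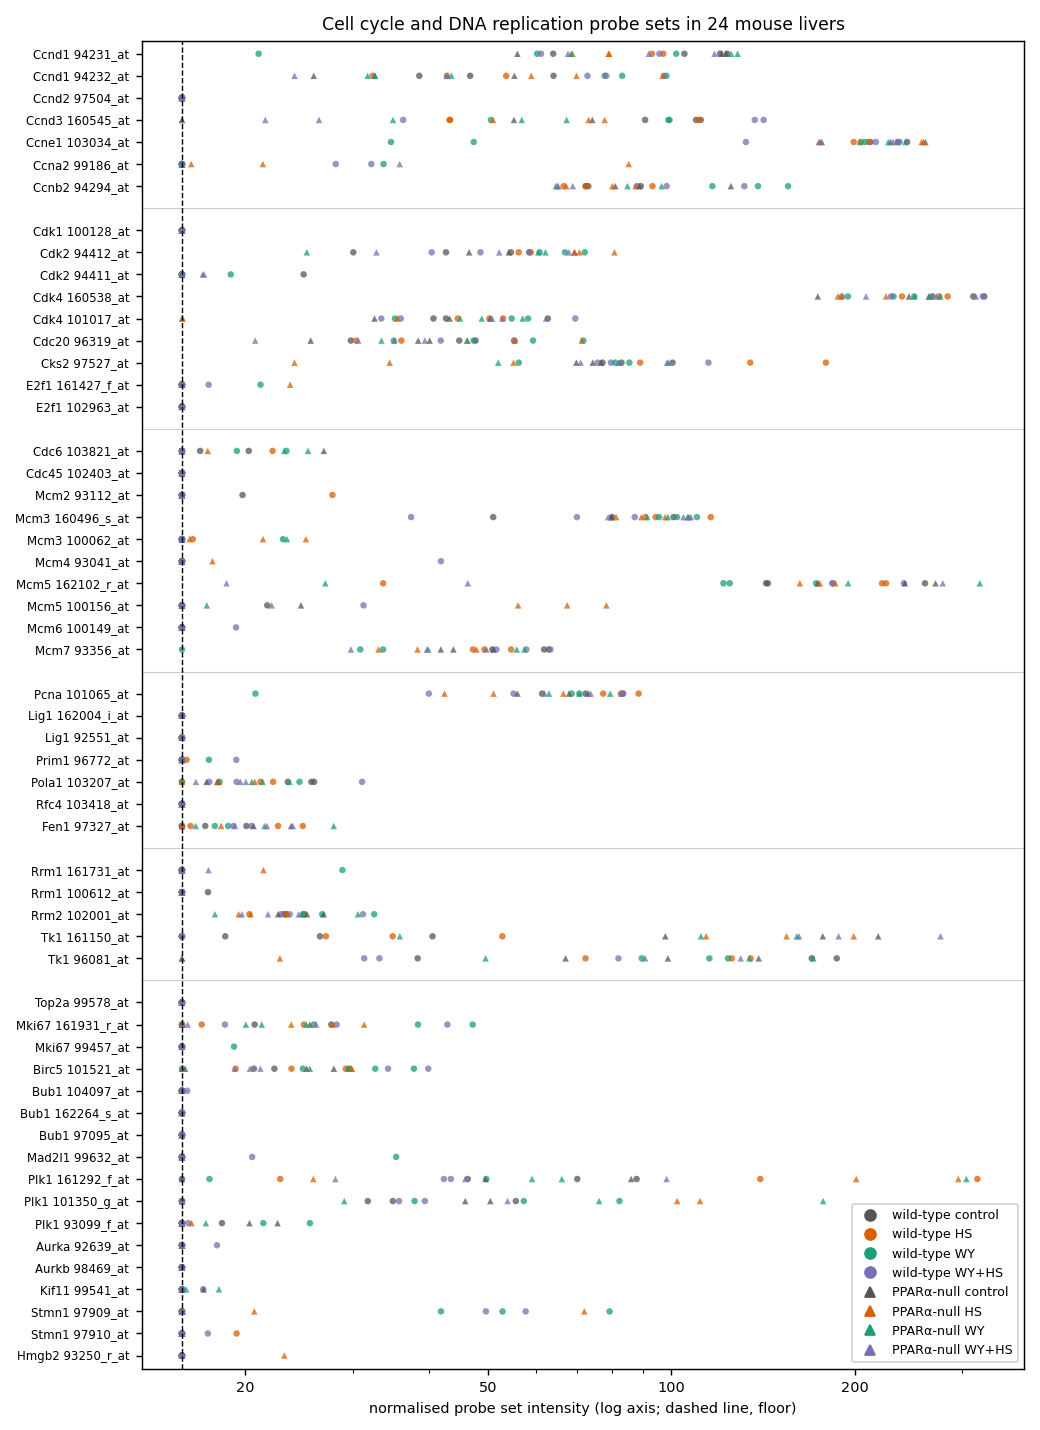
Normalised intensity (x, log axis) of the 55 member probe sets (y, grouped by role: cyclins, kinases and activators, origin licensing, fork, nucleotide supply, mitosis) in 24 mice. Circles are wild-type and triangles PPARα-null mice, colours give the treatment, and the dashed line is the floor of 15.7, where the points of 11 probe sets all lie.

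By role, 5 of 6 measured cyclins and 4 of 6 kinases and activators were above background in a whole group, against 3 of 8 licensing genes, 3 of 6 fork genes, 2 of 3 nucleotide genes and 4 of 11 mitosis genes. *Cdk4*, a kinase of D-type cyclins, by the brighter of its 2 probe sets read 268, 313 and 326 in wild-type controls and 190, 188 and 225 in null HS mice, the groups with the highest and lowest means (303 ± 30.4 and 201 ± 20.9, SD, n = 3). *Pcna*, the sliding clamp of the replication fork, read 83.2, 72.3 and 61.4 in wild-type controls and 68.7, 20.8 and 70.7 in wild-type WY mice, so that a single WY mouse was low, and its group means ran from 53.4 to 82.8. *Plk1*, a mitotic kinase, read by its brightest probe set 140, 318 and 22.8 in wild-type HS mice and 201, 296 and 25.9 in null HS mice. This spread within groups was wider than any difference between group means of *Plk1*, and none of its 3 probe sets passed the test in a comparison. Of the 55 probe sets, 10 carry a letter from the array's maker. It flags sets that share probes with other transcripts or were chosen under relaxed rules. The brightest sets of *Plk1*, *Mcm5*, *Mcm3* and *Mki67* are among them. The unflagged *Mcm3* set was above background on 6 arrays.

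Promoters were listed for 34 of the 40 genes as 300-base windows from 250 bases before to 50 bases after the start (RefSeq, GRCm38.p6). Motifs were searched on both strands: E2F sites as TTTGGCGC, TTTCGCGC, TTTCCCGC or TTTGCCGC, the CHR element as TTTGAA and the CCAAT box as CCAAT. An E2F site was found in 9 of the 34 promoters (26.5%), those of *Cdc6*, *Cdk1*, *Cdk2*, *Lig1*, *Mcm3*, *Mcm5*, *Mcm6*, *Mcm7* and *Pola1*, against 2.6% of all 27025 genes with a listed promoter and 4.33% of those on the array. A CCAAT box was found in 24 (70.6%) against 41.1% of all genes, and a CHR element in 12 (35.3%) against 20.2%. The stretches before the start are shown for 4 members taken up below, to let their motif content be read beside their values: *Ccnb2* and *Cdc20*, which act in mitosis, and *Mcm7* and *Mcm5*, which act at origins. Capitals mark the motifs on either strand. The regions are chr9:70421555-70421674 (minus strand) for *Ccnb2*, chr4:118437344-118437403 (minus strand) for *Cdc20*, chr5:138171884-138172063 (minus strand) for the first listed start of *Mcm7*, and chr8:75109349-75109508 (plus strand) for *Mcm5*.
Ccnb2: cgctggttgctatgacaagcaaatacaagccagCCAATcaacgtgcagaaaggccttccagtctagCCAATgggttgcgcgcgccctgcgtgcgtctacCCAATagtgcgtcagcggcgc
Cdc20: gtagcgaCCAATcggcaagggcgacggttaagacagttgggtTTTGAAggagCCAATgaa
Mcm7: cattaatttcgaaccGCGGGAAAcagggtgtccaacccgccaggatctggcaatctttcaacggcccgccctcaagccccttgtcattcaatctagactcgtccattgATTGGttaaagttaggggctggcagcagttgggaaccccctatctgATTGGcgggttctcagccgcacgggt
Mcm5: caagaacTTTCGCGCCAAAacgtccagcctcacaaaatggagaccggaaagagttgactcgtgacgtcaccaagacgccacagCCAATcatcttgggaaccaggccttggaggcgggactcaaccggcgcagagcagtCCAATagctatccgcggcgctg
The *Ccnb2* stretch held 3 CCAAT boxes and no E2F site. A CHR element was also found in the 300-base window of *Ccnb2*, outside the stretch shown. Those of *Mcm7* and *Mcm5* each held 2 CCAAT boxes beside 1 and 2 E2F sites, the 2 of *Mcm5* overlapping, and that of *Cdc20* held a CHR element between 2 CCAAT boxes.

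WY in wild-type mice changed 4 of the 40 genes, 2 up and 2 down: *Ccnb2* and *Stmn1* rose, and *Ccne1* and *Mcm7* fell. Over all genes 12.9% passed this test (6.73% up and 6.14% down), so the members' share was near the background. The median log2 change of the 40 genes was 0, as was that of all genes. With quantile normalisation and the floor, the median over all probe sets was 0 in every comparison. Many members also lay at the floor in both groups, so these medians cannot show whether the members moved.

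*Ccnb2*, the cyclin B2 that partners Cdk1 at mitosis, read 89.1, 73.1 and 72.3 in wild-type controls and 139, 156 and 117 in wild-type WY mice. The groups did not overlap, and the lowest WY mouse lay above every null mouse but 1, at 125. The change was 0.81 on the log2 scale (SE 0.19, 1.75-fold, adjusted p = 0.011). *Stmn1*, the microtubule destabiliser stathmin, was at the floor in all 3 control mice and read 79.2, 41.9 and 52.9 with WY, at least 3.56-fold higher (adjusted p = 0.015). Its second probe set stayed at the floor in both groups. Without WY mouse 8 the change of *Ccnb2* was 0.71 (adjusted p = 0.056), and without WY mouse 7 that of *Stmn1* was 1.58 (adjusted p = 0.079). With the floor at the 5th percentile *Stmn1* changed by 0.72 (adjusted p = 0.090).

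*Mcm7*, a subunit of the replicative helicase, read 50.9, 61.9 and 63.0 in controls and 30.9, 15.7 and 33.7 with WY, a fall of 2.30-fold (log2 change -1.20, SE 0.25, adjusted p = 0.0033). All 3 WY mice were below every other wild-type mouse, and 1 was at the floor. Without scaling of the arrays the change was -0.73 (adjusted p = 0.22), and in a fit to the compared arrays alone its adjusted p was 0.145. *Ccne1*, the cyclin E1 that partners Cdk2 at the entry to DNA synthesis, read 244, 235 and 212 in controls and 34.7, 208 and 47.4 with WY. WY mice 7 and 9 were far below the controls and mouse 8 was just under the lowest of them. The log2 change was -1.72 (SE 0.44, adjusted p = 0.016), and it was -1.68 without control mouse 1, -1.70 without control mouse 2, -1.21 without WY mouse 7 and -1.44 without WY mouse 9, with adjusted p between 0.051 and 0.094. No other member passed. *Ccnd1*, the cyclin D1 that answers growth signals, gave opposite signs in its 2 probe sets: the dimmer read 64.1, 38.6 and 46.8 in controls and 77.8, 83.1 and 98.2 with WY (adjusted p = 0.10), while the brighter averaged 97.5 ± 30.5 and 61.1 ± 40.5 (SD, n = 3, adjusted p = 0.32). *Mki67*, the proliferation marker Ki-67, averaged 21.4 ± 6.0 and 37.2 ± 10.7 (adjusted p = 0.15) by a flagged probe set. Its other set was at the floor in every mouse but WY mouse 7, at 19.2.

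Some markers of cell types passed the test with WY in wild-type liver, where 6.73% of all genes rose and 6.14% fell. A single call in a list of 8 to 16 markers is near that share. Of 14 hepatocyte markers 6 fell (*Ttr*, *Serpina1b*, *Fga*, *Cps1*, *Ass1* and *Slc10a1*), and their summed intensity was 47140 to 49360 against 54740 to 55390 in controls. Of 11 endothelial markers 3 fell and 1 rose (sum 652 to 752 against 993 to 1169). Of 8 bile duct markers 1, *Krt8*, rose (sum 753 to 870 against 496 to 535). *Krt8* alone read 304 to 793 over the 24 mice, so the bile duct sums rest largely on this gene and cannot stand for bile duct cells. *Krt7* and *Epcam* were at the floor in every mouse, and *Krt19* was above it on 1 array. Of 13 T and NK cell markers 1 rose, at sums of 228 to 363 against 227 to 304, with *Cd3e*, *Cd3g*, *Thy1*, *Cd2*, *Cd8a* and *Cd8b1* at the floor in every mouse. Sums of the other lists overlapped or nearly so: 946 to 1251 against 1194 to 1421 for macrophages (0 of 15 called), 1376 to 1629 against 1649 to 2028 for stellate cells and fibroblasts (1 of 13 fell), 911 to 1055 against 810 to 1130 for B cells (1 of 10 fell), 552 to 674 against 636 to 802 for neutrophils (0 of 13), 2739 to 3468 against 3046 to 3859 for erythroid cells (1 of 10 rose) and 384 to 487 against 390 to 1525 for muscle (1 of 16 fell). The calls of the markers *Flt4*, *Eng*, *Gzma*, *Cd79a*, *Dcn* and *Atp2a1* ended when single mice were left out. The part of the markers in the members' changes was not tested. In whole liver, fewer cells of a type and less RNA per cell cannot be told apart.

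**Figure D2:**
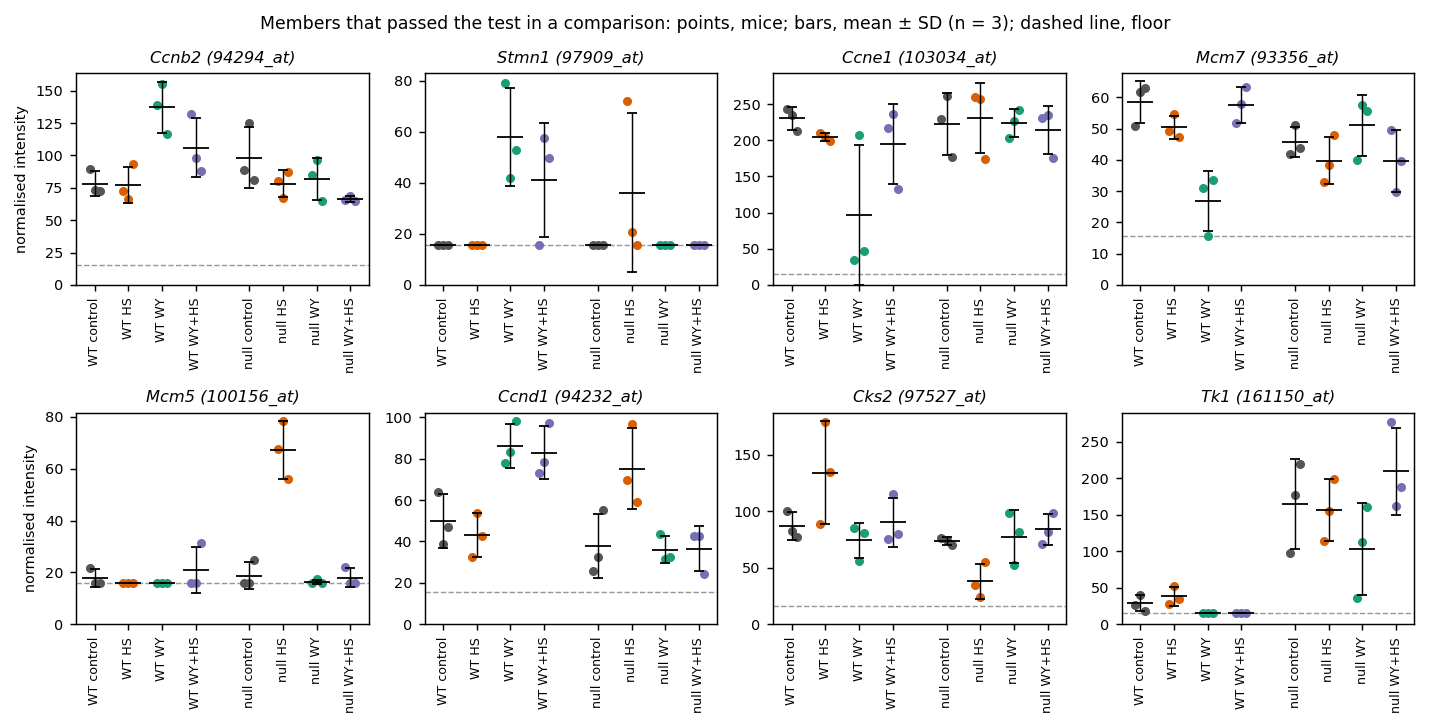
Normalised intensity (y, from 0) of 8 member probe sets in the 8 groups (x; WT, wild-type; null, PPARα-null). Points are mice, bars the mean ± SD (n = 3) and the dashed line the floor; the WY mice of wild-type stand high for Ccnb2 and Stmn1 and low for Mcm7, and the null HS mice stand high for Mcm5.

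HS in wild-type mice changed none of the 40 genes. limma called 0.0485% of all genes in this comparison, no member was under an unadjusted p of 0.05, and the methods' own test called none. *Cks2*, which binds and activates cyclin-dependent kinases, read 88.9, 179 and 135 after HS against 100, 82.9 and 77.1 in controls, with 1 HS mouse inside the control range.

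After WY+HS in wild-type mice, limma called no member (12.6% of all genes were called), 2 members were under an unadjusted p of 0.05, and the methods' test called none. *Ccnb2* read 132, 98.3 and 87.8, a range that touched that of the controls (log2 change 0.42, SE 0.19, adjusted p = 0.23). *Stmn1* was at the floor in 1 mouse and read 57.7 and 49.6 in the others (log2 change 1.18, SE 0.46, adjusted p = 0.14). Among WY-fed wild-type mice, HS raised *Mcm7* alone of the 40 genes (0.509% of all genes were called). *Mcm7* was 51.7, 57.8 and 63.4 with WY+HS, between the values of the untreated controls but for the highest mouse, which was just above them, and differed from WY alone by 1.18 on the log2 scale (SE 0.25, adjusted p = 0.047). This value moved to 0.83 without WY mouse 8, to 1.25, 1.17 and 1.11 without WY+HS mice 10, 11 and 12, with adjusted p between 0.063 and 0.11, and to 0.49 (adjusted p = 0.37) without scaling of the arrays.

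In PPARα-null mice the WY diet changed none of the 40 genes: limma called 0.0121% of all genes, no member was under an unadjusted p of 0.05 and the methods' test called none. *Ccnb2* read 88.7, 125 and 80.9 in null controls and 84.8, 96.4 and 64.7 in null WY mice, and *Mcm7* read 41.9, 51.1 and 43.9 against 39.9, 57.4 and 55.8. Both ranges overlapped. The difference between the strains' responses to WY passed the test for these 2 genes, while 6.27% of all genes did. The change of *Ccnb2* in null mice minus that in wild-type mice was -1.06 on the log2 scale (SE 0.27, adjusted p = 0.031), and that of *Mcm7* was 1.35 (SE 0.35, adjusted p = 0.030). Leaving out any of 6 mice took the *Ccnb2* difference past the threshold (wild-type control 2 or 3, wild-type WY 7 or 8, null control 14, null WY 21, -0.87 to -1.05, adjusted p from 0.068 to 0.085). Likewise for *Mcm7* (wild-type control 2 or 3, null control 13 or 15, null WY 20 or 21, 1.25 to 1.32, adjusted p from 0.064 to 0.078). The differences of *Stmn1* (log2 -1.83, adjusted p = 0.15) and *Ccne1* (1.75, adjusted p = 0.14) did not pass.

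**Figure D3:**
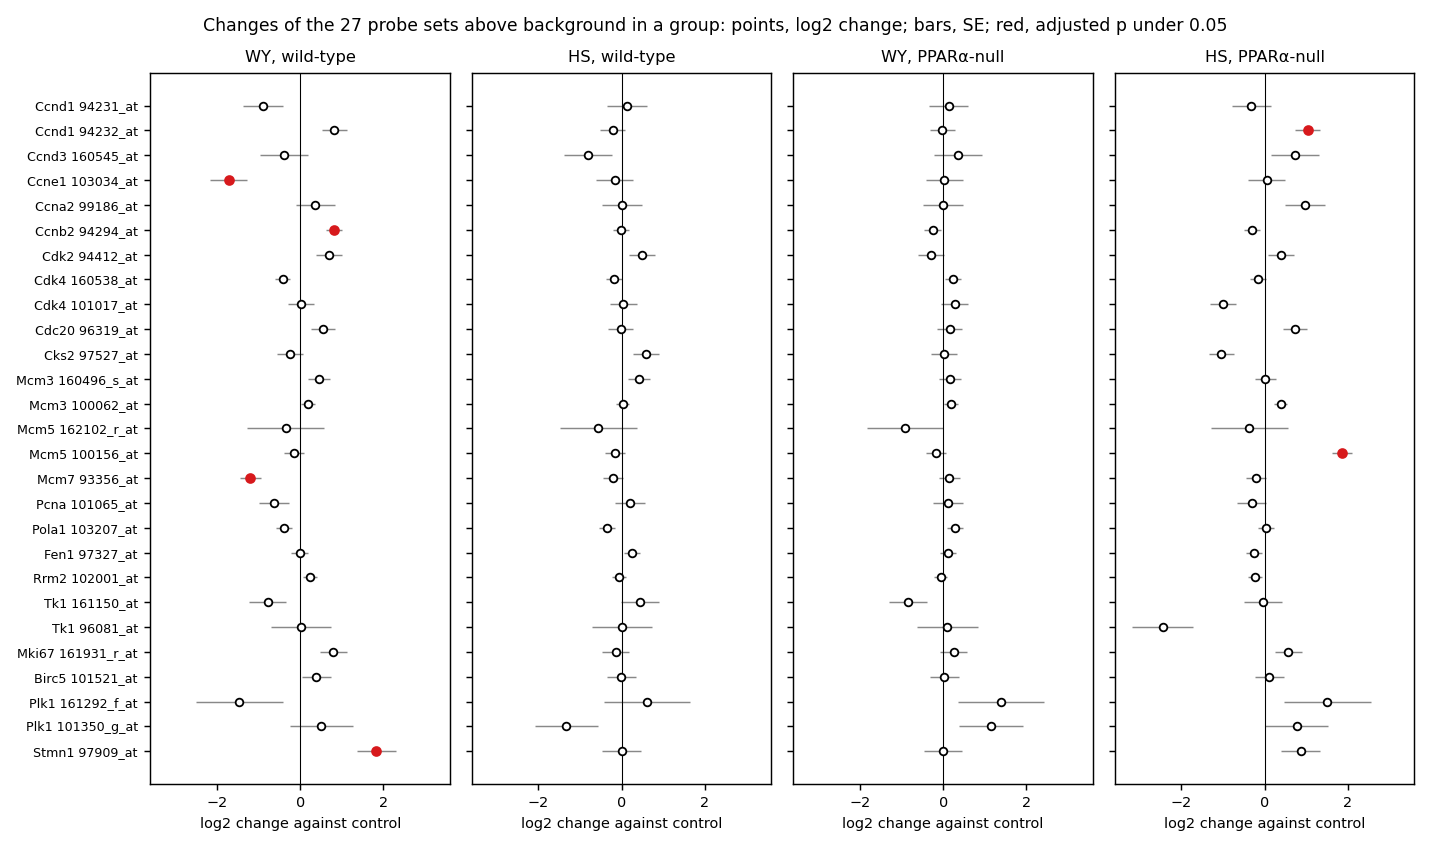
Log2 change against the control group of the same strain (x) of the 27 member probe sets above background on all arrays of a group (y), for WY and for HS in each strain. Points are the fitted changes and bars their SE; red points have an adjusted p under 0.05, 4 for WY in wild-type, none for HS in wild-type or WY in null mice, and 2 (the dimmer sets of Ccnd1 and Mcm5) for HS in null mice.

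HS in PPARα-null mice changed no member by its brightest probe set, where limma called 7.94% of all genes, 2 members were under an unadjusted p of 0.05 and the methods' test called none. Of the 55 probe sets, however, 2 rose (7.07% of all probe sets were called), both of genes with a brighter probe set that did not pass. *Mcm5*, another helicase subunit, read by its dimmer probe set 67.5, 78.3 and 56.1 in null HS mice against 15.7, 15.7 and 24.7 in null controls. All 3 null HS mice were above every other mouse of the study, of which the highest was 31.3. The rise was 3.65-fold (log2 change 1.87, SE 0.24, adjusted p = 0.00014), and the difference from the response of wild-type mice was 2.02 (SE 0.33, adjusted p = 0.0049, 1.62% of all probe sets passed). With the floor at the 20th percentile the rise of *Mcm5* was 3.45 (adjusted p = 0.058) and the strain difference 4.62 (adjusted p = 0.14), and in a fit to the compared arrays alone the adjusted p of the rise was 0.0997. By brightest probe sets, no member's HS response differed between the strains (limma called 1.88% of all genes, 1 member was under an unadjusted p of 0.05 and the methods' test called none). The brighter *Mcm5* probe set read 163, 186 and 175 after HS and 272, 174 and 242 in null controls, ranged over more than 10-fold among null mice and passed no test.

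*Ccnd1* by its dimmer probe set read 69.9, 96.8 and 58.9 in null HS mice against 25.9, 32.7 and 55.3 in null controls, with no overlap but a gap of a few units (log2 change 1.03, SE 0.30, adjusted p = 0.045). It was 0.79, 0.96, 1.07 and 0.83 without null control mice 13 and 14 and null HS mice 16 and 17, each with an adjusted p over 0.1, and 0.98 (adjusted p = 0.056) with the arrays set to a common median. *Cks2* read 34.5, 24.1 and 55.1 after HS against 76.7, 74.3 and 69.9, with every HS mouse below every null control (log2 change -1.04, SE 0.31, adjusted p = 0.051).

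These probe sets moved in livers where part of the non-parenchymal markers were also high. Over all genes, 3.45% rose and 4.48% fell in this comparison. In null HS mice 4 of 13 stellate cell and fibroblast markers rose (*Col1a1*, *Col3a1*, *Des* and *Pdgfrb*, sum 2248 to 2956 against 1597 to 1901 in null controls), as did 4 of 11 endothelial (1140 to 1467 against 860 to 1068), 2 of 15 macrophage (1906 to 2148 against 977 to 1796), 2 of 13 T and NK cell, 2 of 10 B cell (1565 to 1748 against 978 to 1386, *Cd22*, *Cd72* and *Pou2af1* at the floor in every mouse) and 2 of 13 neutrophil markers (*S100a8* and *S100a9*, *Ngp*, *Mmp8* and *Mmp9* at the floor in every mouse). Of 16 muscle markers 3 rose (398 to 1649 against 366 to 450), among them *Des*, which is also in the stellate cell list. *Pdgfrb*, *Myh1* and *Tnni2* were above background on only 3, 3 and 2 arrays, and in no whole group. None of 10 erythroid (3691 to 4636 against 2549 to 3353) or 8 bile duct markers (553 to 676 against 575 to 673) passed. Of 14 hepatocyte markers 3 fell (*Apob*, *Slc10a1* and *Hnf4a*, 49510 to 51880 against 53080 to 56430). Many of these marker calls ended when single mice were left out. These were *Col1a1*, *Col3a1*, *Des*, *Pdgfrb*, *Cdh5*, *Flt4*, *Vwf*, *Emcn*, *Ctss*, *Cd4*, *Ms4a1*, *Jchain*, *Myh1*, *Tnni2*, *Apob* and *Hnf4a*. The part of the markers in the changes of *Mcm5*, *Ccnd1* and *Cks2* was not tested.

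After WY+HS in PPARα-null mice no member passed against null controls: limma called 0.0242% of all genes, 1 member was under an unadjusted p of 0.05 and the methods' test called none. Set against null HS mice, null WY+HS mice were higher in *Cks2* and lower in *Cdc20*, 2 of the 40 genes, where 12.6% of all genes were called. *Cks2* read 71.0, 82.0 and 98.9, all above the null HS mice (log2 difference 1.22, SE 0.31, adjusted p = 0.016). *Cdc20*, an activator of the anaphase-promoting complex, read 30.6, 39.4 and 20.8 against 55.4, 71.3 and 46.3, with no overlap (log2 difference -0.96, SE 0.29, adjusted p = 0.043). By any probe set 5 genes differed (11.2% of all probe sets were called): the dimmer *Mcm5* set was 22.1, 15.7 and 15.7 (log2 difference -1.92, SE 0.24, adjusted p = 7.5e-05), the dimmer *Ccnd1* set was lower (-1.06, SE 0.30, adjusted p = 0.029) and the dimmer *Cdk4* set higher (1.41, SE 0.32, adjusted p = 0.0082).

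Leaving out single mice ended most of these calls. *Cks2* was 1.19, 0.93 and 1.09 without null HS mice 16 and 17 and WY+HS mouse 24 (adjusted p from 0.058 to 0.099). *Cdc20* was -0.97, -0.79, -0.99 and -0.71 without mice 16, 17, 22 and 24 (adjusted p from 0.078 to 0.22), *Ccnd1* -1.10, -0.86 and -0.78 without mice 16, 17 and 24 (0.072 to 0.17), and *Cdk4* 1.22 without mouse 17 (0.053). With the floor at the 5th percentile *Cdk4* was 0.68 (0.11) and *Cdc20* -0.67 (0.071), and without scaling *Cks2* was 1.03 (0.31). The dimmer *Mcm5* set stayed past the threshold without any of the 6 mice compared. In null WY+HS mice marker sums were 206 to 248 for T and NK cells, 515 to 628 for neutrophils and 1845 to 1948 for stellate cells. All lay below the null HS ranges given above, as did the sums of B cell, erythroid and endothelial markers. Sums for macrophages (1380 to 2223), bile duct cells (500 to 626), muscle (340 to 416) and hepatocytes (51680 to 54520) overlapped the null HS ranges. The part of the markers in these differences was not tested.

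Between the strains, 1 of the 40 genes differed among control mice (0.921% of all genes were called). *Tk1*, the thymidine kinase that salvages thymidine for DNA synthesis, read by the probe set that was brighter on average over all mice 97.8, 177 and 219 in null controls against 26.5, 40.6 and 18.5 in wild-type controls, 5.75-fold higher (log2 difference 2.52, SE 0.45, adjusted p = 0.012). It was 2.25 (adjusted p = 0.075) without wild-type mouse 3 and 2.28 (adjusted p = 0.057) without null mouse 15. The probe set was at the floor in all 6 WY-fed wild-type mice, and read 35.9, 112 and 161 in null WY mice and 277, 162 and 188 in null WY+HS mice. Only 1 null mouse, at 35.9, lay inside the wild-type range, whose highest value was 52.8. This set stands for the gene only through its high values in null mice. In wild-type controls it averaged 28.5, and the other *Tk1* set 132, so the count of 1 gene rests on the choice of set.

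The dimmer *Tk1* probe set did not share this pattern, with 67.1, 139 and 98.8 in null controls against 38.4, 170 and 187 in wild-type controls. It was low in null HS mice, at 22.8, 15.7 and 15.7, against 126, 72.3 and 135 in wild-type HS mice. The 2 probe sets of *Tk1* thus passed in opposite directions among heat-shocked mice: the brighter by 2.04 (SE 0.45, adjusted p = 0.0049) and the dimmer by -2.59 (SE 0.73, adjusted p = 0.023). The latter was -2.47, -2.42, -2.50 and -2.50 without wild-type mice 4 and 6 and null mice 17 and 18 (adjusted p from 0.054 to 0.073), and -1.66 (0.099) with the floor at the 5th percentile.

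Among heat-shocked mice of both strains 2 of the 40 genes differed by their brightest probe set, *Tk1* and *Cks2*, where 16.8% of all genes were called. *Cks2* was lower in null HS mice, by 3.61-fold (log2 difference -1.85, SE 0.31, adjusted p = 0.00056), with no overlap between the strains. By any probe set 4 genes differed (14.8% of all probe sets were called). The dimmer *Mcm5* set was at the floor in all 3 wild-type HS mice, and null HS mice were at least 4.23-fold higher (adjusted p = 2.0e-05). The dimmer *Cdk4* set read 15.8, 15.7 and 35.5 in null HS mice and 44.6, 50.3 and 53.0 in wild-type HS mice (log2 difference -1.25, SE 0.32, adjusted p = 0.013), and without null HS mice 16 and 17 it was -1.06 (0.066) and -1.05 (0.071), and with the floor at the 5th percentile -0.51 (0.25). The brighter *Cdk4* probe set did not pass (-0.41, SE 0.19, adjusted p = 0.20).

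Other genes of the cell cycle, 154 measured of a list of 196 around the members, were counted in the same way. WY in wild-type mice raised 16 of them and lowered 7, beside the background of 6.73% and 6.14% of all genes given above. Under HS in wild-type mice and WY in null mice limma called none, with 8 and 3 genes under an unadjusted p of 0.05, and under HS in null mice it called 1, which fell. The split of all WY calls in wild-type mice, 51.8% up, was 42.8% with the arrays set to a common median and 90% without scaling, which also moved the median of all probe sets by 0.12.

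Of 14 inhibitors and pocket proteins 3 rose with WY in wild-type mice and none fell. *Cdkn1a*, a cyclin-dependent kinase inhibitor induced by p53, read 15.7, 19.6 and 15.7 in controls and 85.5, 116 and 82.0 with WY (log2 change 2.46, SE 0.61, adjusted p = 0.013, 2.31 and 0.053 without WY mouse 8). With WY+HS it read 150, 221 and 212, above every WY mouse (3.50 against controls, SE 0.61, adjusted p = 0.0008). In wild-type HS mice 1 of 3 was high, at 162. The set was also above background in all 3 null HS mice and all 3 null WY+HS mice. The dimmer *Cdkn1a* probe set did not pass for WY alone. It was above background on 6 arrays, and in a whole group only for wild-type WY+HS mice (log2 change 3.09 against controls, SE 0.50, adjusted p = 0.00037). *Btg2*, an antiproliferative gene, rose from 24.7, 17.2 and 54.2 to 110, 166 and 89.9 (log2 change 2.05, SE 0.57, adjusted p = 0.028), and the call was lost without control mouse 1 or 2 or WY mouse 7 or 8 (1.69 to 2.10, adjusted p from 0.066 to 0.13). Its relative *Btg1* rose by 0.69 (adjusted p = 0.047, 0.50 to 0.77 with adjusted p over 0.05 without control mouse 1 or 3 or WY mouse 7 or 9). *Btg2* was also above background in all 3 null HS mice. Neither *Cdkn1a* nor *Btg2* passed the test of the difference between the strains' responses to WY.

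Of 21 other cyclins and kinases 4 rose with WY and 1 fell. *Ccng2*, a cyclin G known from cells that stop cycling, read 154, 124 and 188 against 29.6, 59.0 and 15.7 in controls (log2 change 2.35, SE 0.50, adjusted p = 0.0045), and *Ccng1*, a p53 target, rose from a mean of 20.2 ± 3.4 to 41.4 ± 5.4 (SD, n = 3, adjusted p = 0.013). *Ccng1* was 0.91 to 0.95 (adjusted p from 0.063 to 0.070) without control mouse 2 or WY mouse 7. *Ccni* rose by 0.44 and *Cdc34*, a ubiquitin-conjugating enzyme, by 0.55, and without WY mouse 9 they were 0.40 (adjusted p = 0.055) and 0.47 (0.056). *Cks1b*, the relative of *Cks2*, fell by 1.09 on the log2 scale (adjusted p = 0.013), with -1.01 to -0.89 (0.053 to 0.075) without control mouse 3 or WY mouse 8 or 9. In null mice *Ccng2* stayed between 15.7 and 32.9 in all 12 animals.

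Of 33 other origin and fork genes 1 rose and 4 fell with WY in wild-type mice. *Gmnn*, which encodes geminin, the inhibitor of origin licensing, read 37.5, 38.3 and 46.6 in controls and 21.7, 15.7 and 24.0 with WY (log2 change -1.01, SE 0.20, adjusted p = 0.0028). *Mcm10*, a factor that starts replication forks, read 343, 420 and 333 against 129, 109 and 156 (-1.48, SE 0.36, adjusted p = 0.012), and was -1.38 (0.052) without control mouse 2 and -1.36 (0.053) without WY mouse 8. *Dna2* (-0.97) and *Top1* (-0.56) fell too, and *Orc5*, a subunit of the origin recognition complex, rose by 0.47. The call of *Dna2* ended without any of the 6 mice compared (-1.03 to -0.92), that of *Top1* without mouse 1, 2, 7 or 8 (-0.55 to -0.50) and that of *Orc5* without mouse 1, 2, 7 or 9 (0.41 to 0.49). With the floor at the 5th percentile *Gmnn* changed by -0.26 (adjusted p = 0.36), where all 3 WY mice lie at the floor, and without scaling by -0.53 (0.35). No value of a WY mouse overlapped the control range for *Gmnn* or *Mcm10*.

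Of 34 other mitosis genes 4 rose and none fell with WY in wild-type mice. *Nek2*, a kinase of the centrosome, read 38.8, 36.6 and 30.3 in controls and 77.7, 81.6 and 68.7 with WY (log2 change 1.11, SE 0.23, adjusted p = 0.0032). *Ran*, the GTPase of nuclear transport and spindle assembly, rose from 956, 990 and 851 to 1683, 1429 and 1572 (0.74, SE 0.09, adjusted p = 3.0e-05), its exchange factor *Rcc1* by 0.81 (adjusted p = 0.050) and the cytokinesis gene *Ect2* by 0.92 (adjusted p = 0.0052). All 3 WY mice were above all 3 controls for *Nek2* and *Ran*. Among heat-shocked mice *Nek2* was also higher in null than in wild-type mice (log2 difference 0.90, SE 0.23, adjusted p = 0.012, 0.75 and 0.061 without mouse 5). The call of *Rcc1* ended without any of the 6 mice compared (0.59 to 0.92).

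In the other lists WY in wild-type mice raised 2 of 21 checkpoint and repair genes, 2 of 16 nucleotide genes and none of 15 E2F, Myb, Fox and Myc factors, of which 2 fell. *Gadd45b*, a stress gene, was at the floor in controls and read 72.3, 40.0 and 76.8 with WY, at least 3.85-fold higher (adjusted p = 0.0049). *Chek1*, the checkpoint kinase, rose by 0.73 (adjusted p = 0.031). *Ctps1*, which makes CTP, rose from 34.0, 27.9 and 15.7 to 71.5, 105 and 107 (log2 change 1.92, SE 0.42, adjusted p = 0.0059) and *Impdh1*, of guanine nucleotide synthesis, by 0.73 (adjusted p = 0.048). The 2 factors that fell were *Max* (-0.63), the partner of Myc, and *Mxd4* (-0.64), another partner of Max. Leaving out single mice ended the calls of *Chek1* (mouse 1, 7 or 8, 0.47 to 0.70), *Impdh1* (mouse 2, 3, 7, 8 or 9, 0.41 to 0.84), *Max* (mouse 1, 2 or 8, -0.61 to -0.44) and *Mxd4* (any of the 6, -0.70 to -0.59). *E2f8*, an E2F repressor, rose by a probe set that is not its brightest, from 15.7, 16.0 and 15.7 to 42.4, 71.4 and 33.7 (1.56, SE 0.33, adjusted p = 0.0040). With the floor at the 5th percentile *Gadd45b* changed by 0.84 (adjusted p = 0.15) and *E2f8* by 0.46 (adjusted p = 0.21).

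**Figure D4:**
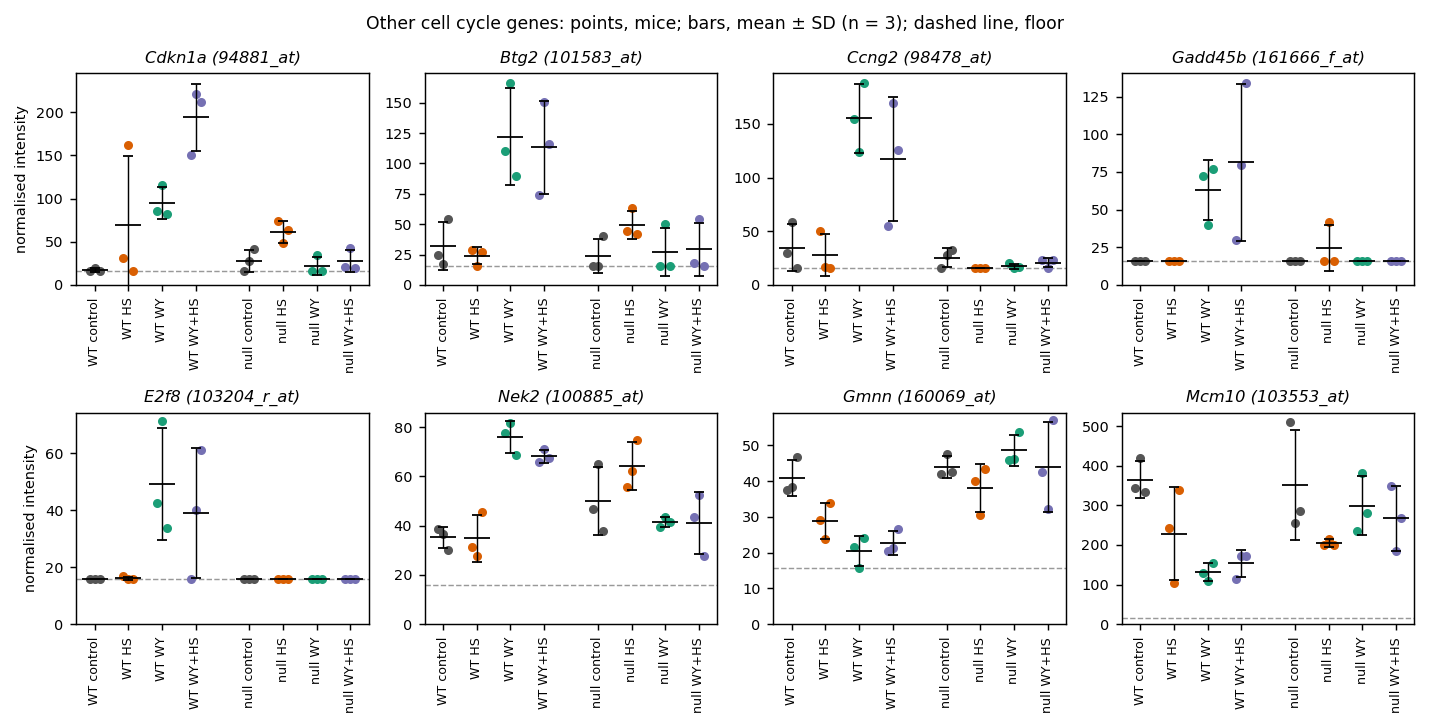
Normalised intensity (y, from 0) of 8 other cell cycle probe sets in the 8 groups (x; WT, wild-type; null, PPARα-null). Points are mice, bars the mean ± SD (n = 3) and the dashed line the floor. Against wild-type controls, wild-type WY and WY+HS mice are high for Cdkn1a, Btg2, Ccng2, Gadd45b, E2f8 and Nek2 and low for Gmnn and Mcm10. Exceptions are 1 WY+HS mouse at the floor for E2f8 and 1 inside the control range for Ccng2. Cdkn1a is also above background in all null HS and null WY+HS mice, and Btg2 in all null HS mice.

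WY+HS in wild-type mice, set against the same controls, raised 13 of the 154 genes and lowered 6 (6.24% and 6.37% of all genes). Values for the genes described above were 1.81 for *Ccng2*, 1.93 for *Btg2*, 2.12 for *Gadd45b*, 1.71 for *Ctps1*, 0.96 for *Nek2*, 0.98 for *Ran*, -0.84 for *Gmnn* and -1.27 for *Mcm10*, with adjusted p-values between 1.3e-06 and 0.038. Single mice left out ended the calls of *Ccng2* (mouse 1, 3, 11 or 12, 1.34 to 1.80), *Btg2* (mouse 1, 2, 11 or 12, 1.57 to 1.89), *Mcm10* (any of the 6, -1.36 to -1.07), and, without control mouse 3, *Ctps1* (1.39), *Nek2* (0.85) and *Gmnn* (-0.75). *Foxm1*, a factor for mitotic genes, read by its brightest probe set 15.7, 16.2 and 45.0 against 160, 58.2 and 114 in controls (-2.18, SE 0.53, adjusted p = 0.012), and was -1.85, -1.92 and -1.94 without control mouse 1 and WY+HS mice 10 and 11 (0.056 to 0.067). The retinoblastoma relative *Rbl2* fell from 32.9, 34.6 and 34.4 to 15.7, 22.4 and 16.8 (-0.91, SE 0.24, adjusted p = 0.019, -0.90 to -0.81 with adjusted p over 0.05 without mouse 2, 3, 10 or 12). Some markers passed with WY+HS too, and lists with a single call were again near the share of all genes. Of 14 hepatocyte markers 6 fell and 1 rose (sum 49090 to 50580 against 54740 to 55390 in controls). Of 11 endothelial markers 3 fell (537 to 729 against 993 to 1169). Of 13 stellate cell and fibroblast markers 1 fell (1180 to 1732 against 1649 to 2028). Of 8 bile duct markers 1, again *Krt8*, rose (939 to 1007 against 496 to 535). Of 10 erythroid markers 1 rose (2301 to 4375 against 3046 to 3859). Of 16 muscle markers 1 fell (427 to 463 against 390 to 1525). No macrophage, T and NK cell, B cell or neutrophil marker passed, at sums of 846 to 1235, 226 to 276, 802 to 1157 and 550 to 725 against 1194 to 1421, 227 to 304, 810 to 1130 and 636 to 802. Their part in these changes was not tested. The share of these calls that were up, 49.3% over all probe sets, was 51.6% with a common median and 29.6% without scaling.

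HS in PPARα-null mice lowered 1 of the 154 genes and raised none (background 3.45% up and 4.48% down over all genes). *Nme2*, a nucleoside diphosphate kinase, read 474, 440 and 608 after HS against 802, 753 and 811 in null controls (log2 change -0.65, SE 0.12, adjusted p = 0.0029). In null WY+HS mice *Nme2* was 0.78 higher than in null HS mice (SE 0.12, adjusted p = 0.00047). Among heat-shocked mice of the 2 strains 12 of the 154 genes were higher and 9 lower in null mice (7.89% and 8.88% of all genes). Replication factor C subunits, the loaders of the sliding clamp, went both ways: *Rfc1* (1.04), *Rfc2* (1.01) and *Rfc3* (0.65) were higher and *Rfc5* (-1.29) lower in null HS mice. *Rfc2* read 124, 147 and 125 against 66.2, 51.6 and 82.3 in wild-type HS mice, without overlap (adjusted p = 0.0046), and differed by 0.46 (adjusted p = 0.35) without scaling. *Rfc1* was 0.78 to 0.88 without mouse 5 or 16, *Rfc3* 0.54 to 0.60 without mouse 4, 6, 16 or 17, and *Rfc5* -1.31 to -1.13 without mouse 4, 6, 16, 17 or 18, all with adjusted p over 0.05. The share of all probe sets called higher in null HS mice than in wild-type HS mice was 48.1%, 37.8% with a common median and 9.05% without scaling.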

How the data were processed

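Liver RNA of 24 mice was hybridised to Affymetrix U74Av2 arrays and read with GeneChip Operating Software by the authors. They deposited 1 intensity per probe set and array, with 24.1% of values at or below 0 and array medians of 15.2 to 40.5. How probes were summarised and arrays scaled is not stated in the labels or methods. The intensities were quantile normalised, floored at 15.7 (the 10th percentile without its minus sign) and log2 transformed. limma 3.58.1 in R 4.3.3 was fitted with 1 mean for each of 8 groups (16 residual degrees of freedom), giving 12 comparisons with Benjamini-Hochberg adjustment over 12422 probe sets at 0.05. The pipeline was tested on simulated data. The spread is pooled over groups, and groups wholly at the floor do not vary, so p-values of probe sets near the floor can be too small. Named were all members, with values in every mouse for those called or brightest in their role, up to 4 called genes of each other cell cycle list, and up to 2 called genes of a marker list; other genes named were chosen after their values were seen. Members and lists were chosen with earlier results of these data known. Symbols came from the platform annotation (10833 probe sets with 1 symbol, 396 with several, 1193 with none). Other settings tried were a common median, other floors, a filter, array weights, another moderation, a fit to the compared arrays alone, the methods' test (all groups first, then Scheffe), any probe set, a fold minimum, leaving out each mouse, and, chosen after seeing the data, no scaling. The number of arrays limits the precision.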

Additional observations from a re-analysis of the deposited data

Results flagged for a closer look

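For 10 genes the response to a treatment differed between the strains by the test of the difference itself (limma, adjusted p under 0.05). Each value is the log2 change in PPARα-null mice minus that in wild-type mice. Under WY, where 6.27% of all genes passed, 2 of the 40 members did, *Ccnb2* at -1.06 and *Mcm7* at 1.35. Under HS, where 1.62% of all probe sets passed, the dimmer probe set of the member *Mcm5* gave 2.02.

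Of the 154 other cell cycle genes 6 passed under WY, and 1 under HS, where 1.88% of all genes passed. *Ran* gave -0.70, and its call held without any single mouse but not with a common median (-0.68, adjusted p = 0.078) or without scaling (-0.99, 0.17). *Nek2* gave -1.35, and -1.24 (0.055) without mouse 3. *Ccng2* gave -2.83, and -2.82 to -2.36 (0.053 to 0.071) without mouse 1, 3, 7, 9, 14, 15, 20 or 21. *Orc5* gave -0.73, and -0.76 to -0.62 (0.051 to 0.093) without mouse 1, 2, 7, 9, 13, 19 or 20. *Ccni* gave -0.62, and -0.60 to -0.57 (0.055 to 0.061) without mouse 3, 9, 13 or 21. *Gmnn* gave 1.16, and 0.98 to 1.13 (0.053 to 0.070) without mouse 3, 8, 13, 15 or 21. Under HS *Nme2* gave -0.79, and -0.77 to -0.70 (0.053 to 0.063) without mouse 2, 3, 5, 6, 16 or 17.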

How the results depend on the processing

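Of 21 called member values, repeated 354 times under other settings, 258 repeats kept direction and call, 96 lost the call and 0 reversed; for the other cell cycle genes, 83 called values gave 1370 repeats, of which 926 kept, 440 lost and 4 reversed. The count for WY in wild-type mice (4) was 1 under the methods' test, 1 with a spread taken from the compared arrays alone and 2 to 4 without single mice. For WY+HS in wild-type mice (0) it was 1 with the floor at the 20th percentile, 1 with array weights and 0 to 1 without single mice. For HS on the WY diet (1) it was 0 with the floor at the 20th percentile, 0 with trend and robust moderation, 2 with array weights, 0 with the compared arrays alone, 5 without scaling and 0 to 1 without single mice. For HS in null mice (0) it was 1 with a common median, 2 with the floor at the 20th percentile, 2 with array weights, 1 with the filter at the 30th percentile, 2 by any probe set and 0 to 1 without single mice. For WY among heat-shocked null mice (2) it was 1 with a common median, 1 with the floor at the 5th percentile, 1 with trend and robust moderation, 4 with array weights, 0 under the methods' test, 0 with the compared arrays alone, 0 without scaling, 5 by any probe set and 0 to 2 without single mice. Between strains it was 0 in place of 1 among controls (compared arrays alone; 0 to 1 without single mice), and among HS mice (2) 0 with the compared arrays alone, 5 without scaling and 4 by any probe set. For the difference of WY responses (2) it was 4 with array weights, 0 under the methods' test, 1 with the compared arrays alone, 0 without scaling and 0 to 2 without single mice, and for that of HS responses (0) 1 with array weights, 1 with the filter, 1 by any probe set and 0 to 1 without single mice. HS in wild-type, WY in null and WY+HS in null mice stayed at 0 under every setting run. With the compared arrays alone, fewer arrays estimate the spread; the cause of the other moves was not tested.

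Without scaling, values reversed between strains among HS mice for *Ccni* (-0.21), *Cdt1* (-0.10), *Gart* (-0.11), *Bub3* (-0.21), *Eng* (-0.044) and *Dcn* (-0.17), and under WY in wild-type mice for *Flt4* (0.037). The count of 21 genes above background was 15 with the floor at the 5th percentile, 31 at the 20th and 21 with a common median. No paired analysis was possible because no label ties a mouse of a group to a mouse of a different group. Dim probe sets limit what can be seen: differences among values at the floor are lost.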
